A study of Mus musculus with 9 samples.

Results

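Liver expression of ribosomal protein genes was followed in male mice of the strain C57BL/6J, 14 weeks old at sampling. The deposited gene table has 49585 rows, and 156 of them carry a ribosomal protein symbol of the chosen form. Of these, 81 are cytosolic (symbols Rpl, Rps and Rplp with a number and at most 1 further letter) and 75 are mitochondrial (Mrpl and Mrps with a number). By symbol, 50 cytosolic genes belong to the large and 31 to the small subunit, and 49 mitochondrial genes to the large and 26 to the small subunit. Symbols of another form, such as Fau or Mrps18b, fall outside both classes.

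Mice of the MG group lived for about 35 days in microgravity on the International Space Station. Those of the AG group lived there in a centrifuge at 77 rpm, which gave 1 g in orbit. Ground controls, GC, were kept for 35 days at 1 g in Tsukuba, in housing that copied the flight's. Each flight group had 6 animals, was killed 2 days after splashdown and came from the Jackson Laboratory, while GC animals came from Charles River, so supplier and flight cannot be told apart in a comparison with GC. Each group gave 3 libraries (9 in total), made from powdered liver after removal of ribosomal RNA. No label ties a library to an animal, so the error behind each p-value is the variation among libraries, part of which may be technical.

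Cytosolic ribosomes translate the messages of nuclear genes, and each carries its ribosomal proteins in near-equal numbers around the ribosomal RNA. Mitochondrial ribosomes are a separate machine that translates the few messages of mitochondrial DNA, all of them for subunits of oxidative phosphorylation, and their proteins are made in the cytosol and imported. Hepatocytes hold many of both, since they secrete plasma proteins and are rich in mitochondria. Most cytosolic ribosomal protein messages begin with a run of pyrimidines, the terminal oligopyrimidine tract, through which mTOR signalling controls their translation rather than their amount. Mitochondrial ribosomal protein genes usually have housekeeping promoters with sites for NRF1, ETS family factors or YY1.

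Part of the cytosolic class has a run of pyrimidines at or near the annotated start site. The following windows of 30 bases, 15 on each side of the annotated start, come from RefSeq on build GRCm38.p6, with runs of at least 8 pyrimidines (C or T) in capitals. The first 5 genes were chosen to show a run and the last 2, shown for contrast, have none: Rplp0 for the stalk protein at the ribosome's factor-binding site, and Rpl36a for the cytosolic gene with the smallest p in MG against GC.
Rpl7a (chr2:26910792-26910821, plus strand): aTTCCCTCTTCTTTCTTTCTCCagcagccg
Rpl27a (chr7:109519180-109519209, plus strand): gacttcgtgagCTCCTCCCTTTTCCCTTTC
Rplp2 (chr7:141447636-141447665, plus strand): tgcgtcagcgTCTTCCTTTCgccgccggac
Rps6 (chr4:86857353-86857382, minus strand): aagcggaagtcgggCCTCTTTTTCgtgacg
Rps27 (chr3:90213634-90213663, minus strand): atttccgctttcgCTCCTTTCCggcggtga
Rplp0 (chr5:115559452-115559481, plus strand): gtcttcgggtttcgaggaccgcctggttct
Rpl36a (chrX:134585639-134585668, plus strand): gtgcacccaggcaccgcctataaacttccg

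Promoter sequences were found by symbol for 125 of the 156 members. Among members tested for expression, a run of at least 8 pyrimidines reached into the 15 bases on either side of the start in 29 of 55 cytosolic genes (52.7%). The same held for 13 of 66 mitochondrial genes (19.7%), for 20.9% of all tested genes and for 20% of all genes in the promoter table. Runs were counted on the transcribed strand alone. A run may lie wholly before the start and outside the message, so its presence does not show a terminal oligopyrimidine tract. Absence of a run says only that these letters were not at the annotated start, which may differ from the start used in liver.

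Promoters of the mitochondrial class were searched for the NRF1 motif (the capitals in the first pair of windows, with any base at position 5), CCGGAAG (ETS) and AAGATGGC (YY1) on both strands, from 250 bases before to 50 after the start. One window of 30 bases per match is shown for members that carry one, with the match in capitals. In the window of AAGATGGC the match lies on the opposite strand.
Mrpl12, NRF1 motif (chr11:120484546-120484575, plus strand): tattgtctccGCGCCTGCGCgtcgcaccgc
Mrps9, NRF1 motif (chr1:42851218-42851247, plus strand): tgggaggtctGCGCCTGCGCagtctccagg
Mrps12, CCGGAAG (chr7:28741803-28741832, minus strand): taaggaggaaccCCGGAAGgggctggaggt
Mrpl43, CCGGAAG (chr19:45006481-45006510, minus strand): ctcgcggtgactCCGGAAGcaaaactctcc
Mrpl36, AAGATGGC (chr13:73330968-73330997, plus strand): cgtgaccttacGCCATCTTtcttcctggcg
The NRF1 motif was present in 19.7% of the mitochondrial and 7.27% of the cytosolic promoters, against 11.7% of the promoters of all tested genes and 5.19% of those of all genes in the table. CCGGAAG was present in 34.8%, 41.8%, 20.1% and 9.93% in the same order, and AAGATGGC in 16.7%, 9.09%, 5.31% and 3.19%. A match of letters is a description of the sequence and no evidence of binding.

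Levels are given as CPM (a gene's share of the library's counts, scaled by TMM to a fixed total) and, for comparisons between genes, as CPM per kb of annotated exon. All 75 mitochondrial genes and 75 of the 81 cytosolic genes had enough counts to be tested, among 11884 tested genes. The median tested cytosolic gene stood at 81.4 CPM per kb and the median mitochondrial gene at 11.6, against 4.77 over all tested genes. Large-subunit genes had a median of 62.4 CPM per kb and small-subunit genes 92.0 in the cytosolic class, and 13.5 and 8.11 in the mitochondrial class. The cytosolic class held between 0.917% and 1.12% of all gene counts in a library, and the mitochondrial class between 0.185% and 0.220%.

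The highest cytosolic genes were Rplp1, an acidic stalk protein (440 ± 50.4 CPM per kb, SD, n = 9 libraries), Rpl8, a protein near the peptidyl transferase centre (337 ± 27.3), and Rps15, which reaches the decoding site (305 ± 27.5). Among mitochondrial genes the highest were Mrpl34 (59.9 ± 11.1 CPM per kb), Mrpl12, which also binds the mitochondrial RNA polymerase (54.1 ± 5.37), and Mrps21 (53.3 ± 6.32). The SD ranges of neighbours in that mitochondrial order overlapped. At the low end stood Rpl27 with 3.58 CPM per kb and Mrps25 with 1.48. The other genes of the stalk were Rplp0 (185 ± 12.03 CPM per kb) and Rplp2 (49.4 ± 3.85), the partner of Rplp1 in the stalk, and the exon models of the 3 stalk genes run from 499 bases for Rplp1 to 2072 for Rplp2, a length that sets this scale. In CPM without a length, the 3 stalk genes in GC stood at 292 ± 7.90 (Rplp0), 236 ± 33.1 (Rplp1) and 105 ± 6.81 (Rplp2; SD, n = 3 libraries each).

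The classes also differed in how their reads could be placed. The deposited expression value counts uniquely mapped exon reads plus reads over exon junctions that map to more than 1 place. Unique reads were 34.4% of all exon reads in the median cytosolic gene and 99.9% in the median mitochondrial gene, with 100% in the median tested gene. Fewer than 10% of exon reads were unique in 17 cytosolic and 2 mitochondrial genes, against 1.36% of all tested genes. Multiply mapped junction reads gave more than 50% of the expression value in 37 of 75 cytosolic and 2 of 75 mitochondrial genes. The table has 265 rows named as pseudogenes of cytosolic members, which belong to 56 of the tested ones, and 5 rows for mitochondrial members.

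The 3 lowest cytosolic shares were those of Rps23, a protein of the decoding centre (0.671%), Rps6, the target of S6 kinase (0.731%), and Rpl23a, which lies at the exit tunnel (1.24%). Rps6 had 163 unique exon reads in all 9 libraries together, of 22292 exon reads. The 3 lowest mitochondrial shares were those of Mrpl53 (0.131%, or 3 of 2286 exon reads), Mrpl23 (3.58%) and Mrps34 (23.0%). The level and any fold change of such genes rest on reads that another locus could also have given.

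**Figure D1:**
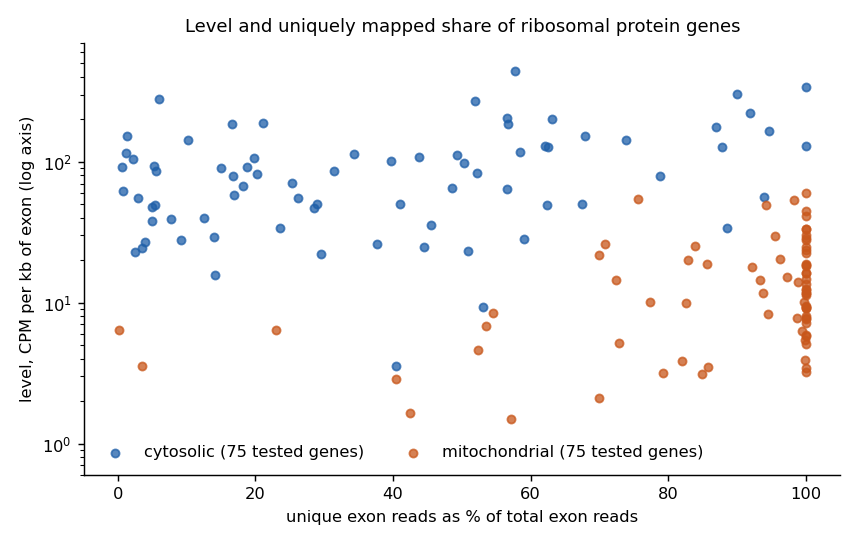
Each point is a tested gene, with unique exon reads as a percentage of its total exon reads on the x axis and its level in CPM per kb of exon on a log y axis. Cytosolic genes (blue) spread over the whole range of unique shares around a median of 34.4%, and mitochondrial genes (orange) gather near 100% at lower levels.

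Rps12, a small-subunit protein, showed the extreme of this. Its row had 0 counts in 7 libraries, 3 in MG 3 and 5 in AG 1, and 23 rows of the table are named as its pseudogenes. Yet its introns held between 21 and 43 unique reads in every library, so reads placed at its locus alone were present in all 9. Intron reads may not come from unspliced messages alone. The exon count of Rps12 cannot be read as the amount of its message. Of the other untested cytosolic rows, the testis paralog Rpl39l and Rps4l had 0 counts in all libraries, which allows up to 0.335 to 0.484 CPM (3 counts, counting error only). Rpl10l, also a testis paralog, had 1 count in all and Rpl6l had 8.

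Rpl3l is the paralog of Rpl3 that striated muscle uses. It had 11 counts in GC 1, 25 in GC 2, 16 in MG 2, 1 each in MG 1 and AG 1 and 0 in the other 4 libraries. The 10 skeletal muscle markers Acta1, Ckm, Myh4, Myh1, Tnnt3, Mylpf, Tnni2, Pvalb, Actn3 and Myl1 summed to 179, 517 and 349 CPM in GC 1, GC 2 and MG 2, with none at 0. They summed to 72.1 CPM in AG 1, 13.0 in AG 3 and between 0.373 and 1.19 in the remaining 4, where 5 to 9 of the 10 were at 0. The 3 libraries with more than 1 count of Rpl3l were thus the 3 with the highest muscle marker sums, and they lie in 2 of the groups. Because bulk tissue was measured, fewer cells of a type and less RNA per cell cannot be told apart for any of these values.

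**Figure D2:**
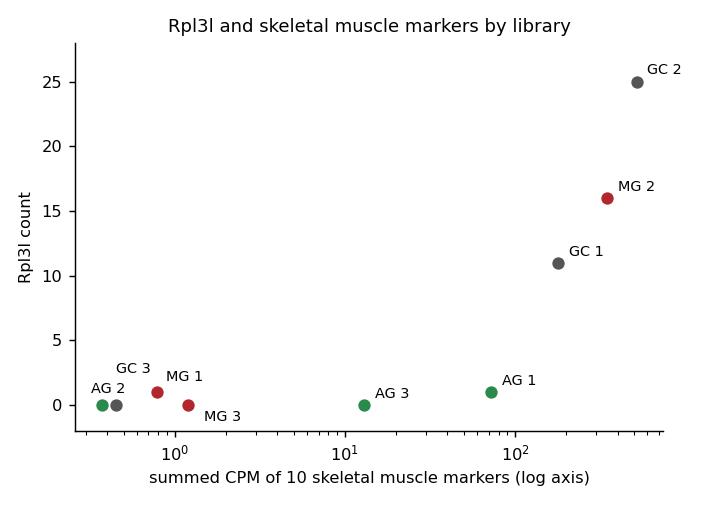
Each point is a library, coloured by group, with the summed CPM of 10 skeletal muscle markers on a log x axis and the Rpl3l count on the y axis. GC 1, GC 2 and MG 2, with 11, 25 and 16 counts, stand to the upper right, and the other 6 libraries have 0 or 1.

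Some further facts of the libraries bear on the classes. Libraries held between 6194521 and 8957331 gene counts. The hepatocyte markers Alb, Ttr, Apoa1, Serpina1c and Cps1 summed to between 77982 and 108574 CPM, with none at 0. AG 1 stood apart, with 10 macrophage markers summing to 1261 CPM against 245 to 327 in the other 8. Intron reads over all genes were 40.9% of its unique gene reads against 31.6% to 36.6%. In MG the sum of 5 bile duct markers lay below GC without overlap (28.3 to 28.8 against 36.9 to 47.1 CPM). The same held for the erythroid markers (170 to 200 against 204 to 365 CPM) and for the macrophage and lymphocyte markers. The MG and GC sums overlapped for the hepatocyte, muscle, endothelial and stellate markers. In AG the bile duct sums were 38.6 to 56.3 CPM and the erythroid sums 281 to 418. The part of cell make-up in the class values was not tested. In the samples of each group no pair of libraries was a duplicate.

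Microgravity was compared with the ground to ask whether life without weight changed the ribosomal protein messages of the liver. By the quasi-likelihood test of edgeR, at a threshold of 0.05 on the Benjamini-Hochberg adjusted p, no member of either class was called: 0 of 75 cytosolic and 0 of 75 mitochondrial genes, where 1.39% of all tested genes passed. DESeq2 called 1 mitochondrial gene, Mrpl20, and limma-voom called 0 of either class. The authors' deposited table marks 0 members as well. At an unadjusted p below 0.05 there were 2 higher and 6 lower cytosolic genes and 1 higher and 8 lower mitochondrial genes, against 13.9% of all tested genes (7.27% higher, 6.6% lower).

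The intervals were narrow. The 95% interval of the fold change lay within 1.5-fold for 67 cytosolic (89.3%) and 58 mitochondrial genes (77.3%), against 52.4% of all tested genes, and within 2-fold for 75 and 73. No fitted change of a member exceeded 1.5-fold. The median log2 fold change was -0.05 in the cytosolic and -0.08 in the mitochondrial class, against 0.01 over all tested genes. Below 0 were 44 of 75 cytosolic and 57 of 75 mitochondrial genes, against 48.8% of all tested genes. The cytosolic median lay between -0.13 (without MG 3) and 0.02 (without MG 1) when 1 library was left out, and was 0.00 without GC 2. It was -0.01 without MG 2 and -0.09 without GC 1. The mitochondrial median stayed below 0, from -0.13 without MG 3 to -0.04 without MG 1. On unique exon reads alone the medians were -0.06 in the cytosolic and -0.08 in the mitochondrial class. There 58 of 75 cytosolic and 71 of 73 mitochondrial genes kept their sign.

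**Figure D3:**
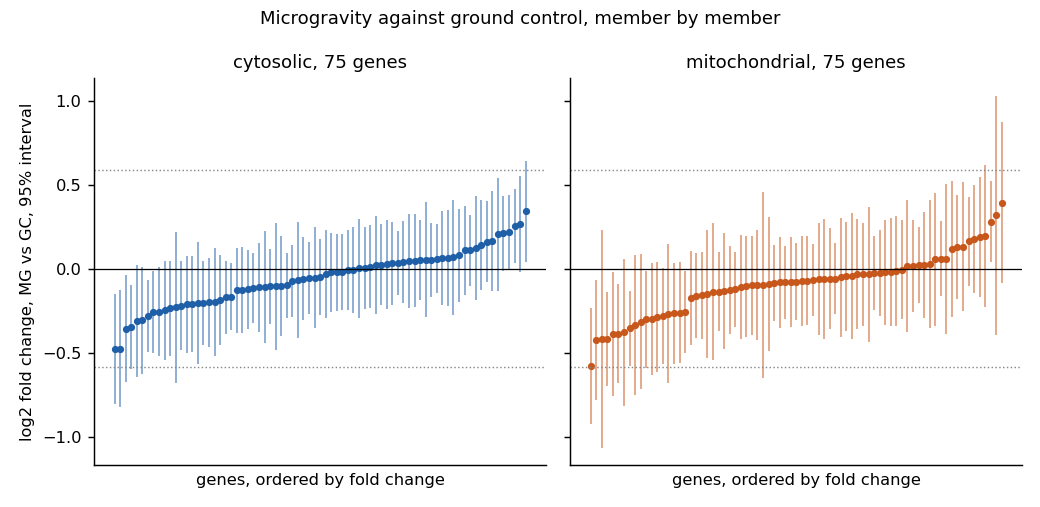
The log2 fold change of MG against GC (points) with its 95% interval (lines) for each tested gene, ordered by size, in the cytosolic (left) and mitochondrial (right) class, with dotted lines at 1.5-fold. Intervals cross 0 for most genes, and no point lies beyond a dotted line.

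Cytosolic genes with the smallest p came from the large subunit and were lower in MG. Rpl36a, a protein of the tRNA exit site (ENSMUSG00000079435, chromosome X from 134585654 to 134588062), stood at 52.9, 64.1 and 55.8 CPM in GC 1 to GC 3. It stood at 39.2, 36.5 and 48.6 CPM in MG and at 54.7, 43.0 and 39.5 CPM in AG. All MG libraries lay below all GC libraries, while AG overlapped both. The log2 fold change of MG against GC was -0.47 ± 0.15 (SE), with an adjusted p of 0.169 by edgeR, and on unique exon reads alone, 14.0% of its exon reads, it was -0.66 ± 0.16 with an adjusted p of 0.074.

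Rpl19, which forms a bridge between the subunits (chromosome 11 from 98026710 to 98030492), had 154, 173 and 155 CPM in GC, 120, 121 and 139 in MG and 172, 135 and 148 in AG. MG lay below GC without overlap. Its log2 fold change was -0.34 ± 0.11 with an adjusted p of 0.187 by edgeR, and -0.76 ± 0.22 on unique exon reads (10.2% of its exon reads). Rpl23a (chromosome 11 from 78180932 to 78183584) had 108, 126 and 112 CPM in GC, 73.8, 80.9 and 94.3 in MG and 118, 74.7 and 98.7 in AG. Its log2 fold change was -0.47 ± 0.16 with an adjusted p of 0.199 by edgeR, and it was called, with an adjusted p of 0.0495, when only MG and GC libraries were fitted. Its count rests on multiply mapped junction reads for 97.4%, and on unique exon reads its log2 fold change was -0.48 ± 0.38. The tested gene Tlcd1 overlaps it on the opposite strand, and whether counting used the strand is not given in the sources used here.

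Rpl12, at the base of the stalk (chromosome 2 from 32961559 to 32965345), had 103, 117 and 104 CPM in GC, 82.4, 86.4 and 97.9 in MG and 97.6, 91.6 and 98.2 in AG, with 3.92% of exon reads unique. Rps27l, the paralog of Rps27 known as a p53 target, had 114, 132 and 110 CPM in GC and 135, 134 and 182 in MG, without overlap (log2 fold change 0.34 ± 0.14, adjusted p 0.296 by edgeR).

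These leading genes were counted by subunit. The MG libraries lay wholly below the GC libraries for 10 of 46 cytosolic large-subunit genes and above for 0. In the small subunit they lay below for 0 of 29 and above for 2. Over all tested genes, MG and GC did not overlap for 23.2% (11.9% higher, 11.3% lower), so the cytosolic total of 12 of 75 is below that share. By direction, the 2 higher of 75 lay below their share and the 10 lower of 75 did not. Of the 10 lower large-subunit genes (Rpl36a, Rpl19, Rpl23a, Rpl12, Rpl21, Rpl24, Rpl30, Rpl29, Rpl3 and Rpl4), 9 had under 50% unique exon reads, with a median of 13.3%. Of all 75 tested cytosolic genes 28 had at least 50%, and the median was 34.4%. Rps27l, higher in MG, had 94.7%. The median log2 fold change was -0.05 for the large and 0.03 for the small subunit. The difference between subunits was not tested.

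In the mitochondrial class Mrpl20 had the smallest p (ENSMUSG00000029066, chromosome 4 from 155802878 to 155809975). This large-subunit gene stood at 30.5, 36.9 and 26.3 CPM in GC, 21.7, 17.9 and 23.1 in MG and 31.6, 24.99 and 29.4 in AG. MG lay below both other groups without overlap. Its log2 fold change of MG against GC was -0.58 ± 0.16 with an adjusted p of 0.114 by edgeR, and 0.0447 by DESeq2. Without GC 1, GC 2 and MG 2, the libraries with the highest muscle marker sums, it was -0.24 ± 0.21, where the 1 GC library left is assumed to vary like the other groups.

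Mrpl38 (chromosome 11 from 116131817 to 116138868), a large-subunit protein with no bacterial counterpart, had 75.8, 83.2 and 86.1 CPM in GC, 64.0, 60.3 and 67.6 in MG and 83.1, 72.1 and 69.3 in AG. Its log2 fold change was -0.35 ± 0.10 with an adjusted p of 0.135 by edgeR. Mrps5, counterpart of bacterial S5 (chromosome 2 from 127587222 to 127606829), had 41.5, 39.7 and 33.9 CPM in GC, 31.2, 23.9 and 31.3 in MG and 35.5, 35.4 and 35.5 in AG. Its log2 fold change was -0.41 ± 0.13 with an adjusted p of 0.160 by edgeR, and it was -0.13 ± 0.18 without GC 1, GC 2 and MG 2, where the 1 GC library left is assumed to vary like the other groups. Both genes were lower in all MG libraries than in any GC or AG library.

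Mrpl54 (17.6, 17.6 and 18.3 CPM in GC, 12.8, 12.8 and 15.5 in MG) and Mrps30 (16.1, 14.0 and 14.1 in GC, 10.7, 10.1 and 12.3 in MG) were lower without overlap as well. Mrps30 carries a small-subunit symbol, though structures place its protein in the large subunit. Mrps24, which shares its locus and strand with the tested gene Urgcp, was higher in MG at 44.7, 46.8 and 55.3 CPM against 40.6, 36.5 and 43.7 (log2 fold change 0.28 ± 0.11, adjusted p 0.278 by edgeR). MG lay wholly below GC for 7 of 49 large-subunit and 6 of 26 small-subunit genes by symbol, and above for 0 and 1. That is 14 of 75 against the 23.2% of all tested genes. By direction, 13 of 75 lower genes lay above the 11.3% of all tested genes, and 1 higher gene lay below the 11.9%. None of the 13 lower mitochondrial genes had under 50% unique exon reads, and of all 75 tested mitochondrial genes 70 had at least 50%. Of all tested cytosolic genes 28 of 75 had at least 50%. The contrast with the lower cytosolic genes thus holds between the whole classes as well.

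**Figure D4:**
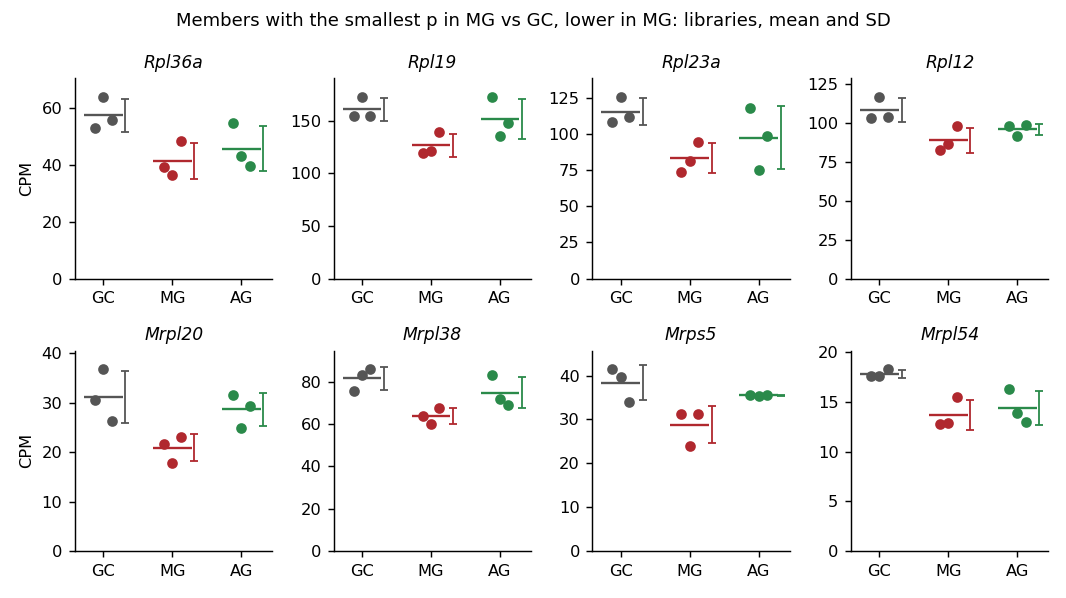
CPM in each library (points), the group mean (horizontal line) and the SD over 3 libraries (bar) for the 4 genes of each class that were lower in MG with the smallest p against GC, on axes from 0. All MG points lie below all GC points in each panel, and AG points lie between or overlap.

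Of the other genes followed in every case, Rplp0, often used as a reference gene, had a log2 fold change of 0.06 (95% interval -0.14 to 0.26). The interval was -0.48 to 0.05 for Rplp1 and -0.25 to 0.22 for Rplp2. It was -0.22 to 0.35 for Rps6, -0.15 to 0.37 for the X-linked Rps4x and -0.29 to 0.30 for Rpl10, which joins the large subunit late in its assembly. Rpl22 had -0.27 to 0.31 and Rps27 -0.13 to 0.41. Among mitochondrial genes the interval was -0.41 to 0.09 for Mrpl12, -0.59 to -0.01 for Mrps12, counterpart of the decoding protein S12 of bacteria (adjusted p 0.347 by edgeR), and -0.34 to 0.31 for Mrpl3, at the peptidyl transferase centre. Rpl3, also at that centre, had 133, 149 and 139 CPM in GC and 112, 123 and 120 in MG, without overlap, with an interval of -0.54 to 0.05.

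Centrifuged mice were compared with the ground to ask what flight left when 1 g was kept. Of the members, 0 cytosolic and 0 mitochondrial genes passed in edgeR, where 0.0% of all tested genes passed, and DESeq2 and limma-voom also called 0 members. The authors' deposited table marks 0. At an unadjusted p below 0.05 there were 1 higher and 2 lower cytosolic genes and 0 higher and 4 lower mitochondrial genes, against 10.1% of all tested genes (5.51% higher, 4.58% lower). The median log2 fold change was 0.01 in the cytosolic and -0.09 in the mitochondrial class, against 0.01 over all tested genes. The mitochondrial genes lay below 0 in 58 of 75 cases, against 48.2% of all tested genes, and their median was -0.03 without AG 1. On unique exon reads the medians were -0.01 and -0.09, and 65 of 75 cytosolic and 71 of 73 mitochondrial genes kept their sign. This comparison uses the same GC libraries as the one before, so a like sign in both is not independent.

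Mrpl36, counterpart of the bacterial protein L36, had the smallest p (chromosome 13 from 73331009 to 73332175). It stood at 20.6, 21.6 and 30.9 CPM in GC, 15.7, 14.9 and 19.3 in AG and 18.1, 17.7 and 23.0 in MG. AG lay below GC without overlap, with a log2 fold change of -0.55 ± 0.18 and an adjusted p of 0.385 by edgeR. Mrpl4 (chromosome 9 from 21002738 to 21008839) had 30.7, 33.6 and 32.4 CPM in GC, 24.5, 24.9 and 29.3 in AG and 32.4, 33.0 and 32.8 in MG, so that AG lay below both other groups. Mrps27, with pentatricopeptide repeats, Mrpl54 and Mrps25 were also lower in AG than in GC without overlap, and Mrpl9 overlapped. Their adjusted p-values by edgeR were between 0.417 and 0.506, including that of Mrpl4.

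Among cytosolic genes Rps27 had the smallest p and the highest log2 fold change of AG against GC (0.29 ± 0.12, adjusted p 0.481 by edgeR). It had 87.0, 116 and 92.1 CPM in GC and 134, 117 and 110 in AG, which overlapped, with 2.23% of exon reads unique. Rps2, at the mRNA entry, was lower without overlap, with 209, 221 and 231 CPM in GC and 156, 189 and 199 in AG (adjusted p 0.489 by edgeR). Rpl36a and Rpl3 had adjusted p-values of 0.493 and 0.500 by edgeR. AG and GC did not overlap for 7 cytosolic genes (5 higher, 2 lower) and 7 mitochondrial genes (all lower), against 14.4% of all tested genes (7.21% higher, 7.17% lower).

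The comparison of MG with AG asks what gravity changed between mice that both flew. Again 0 members of either class passed in edgeR, where 0.0% of all tested genes passed, and DESeq2, limma-voom and the authors' deposited table gave 0. At an unadjusted p below 0.05 there were 0 higher and 2 lower cytosolic genes and 1 higher and 5 lower mitochondrial genes, against 9.79% of all tested genes (4.03% higher, 5.76% lower). The median log2 fold change was -0.06 in the cytosolic class, 0.005 in the mitochondrial class and 0.00 over all tested genes. Below 0 were 52 of 75 cytosolic and 37 of 75 mitochondrial genes, against 49.9% of all tested genes. Without AG 1 the cytosolic median was -0.02 and the mitochondrial one -0.03. On unique exon reads they were -0.10 and 0.003, and 61 of 75 cytosolic and 72 of 73 mitochondrial genes kept their sign.

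Mrpl4 was higher in MG than in AG without overlap (log2 fold change 0.32 ± 0.10, adjusted p 0.373 by edgeR). Mrpl20 (-0.45 ± 0.16), Mrps11 (-0.30 ± 0.13), Mrps5 (-0.30 ± 0.13), Mrps30 (-0.37 ± 0.16) and Mrpl38 (-0.23 ± 0.10) were lower in MG without overlap, on the log2 scale with SE. Of these, Mrps11 shares its locus with Mrpl46 on the opposite strand, both members. In the cytosolic class Rpl29 had 47.3, 42.4 and 46.2 CPM in MG and 72.3, 49.7 and 48.0 in AG, and Rps15 had 172, 168 and 187 in MG and 220, 190 and 201 in AG. These were the 2 cytosolic genes without overlap. Rpl19, Rpl24, Rps28 and Rpl17 overlapped, with adjusted p-values between 0.489 and 0.587 by edgeR. MG and AG did not overlap for 8 mitochondrial genes (2 higher, 6 lower), against 12.4% of all tested genes (6.4% higher, 5.96% lower).

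Differences between single libraries were as large as those between groups. The median deviation of the 75 cytosolic genes from their mean over 9 libraries was -0.14 on the log2 scale in MG 1 and 0.13 in MG 3, both of the same group. In MG 1, 5 of 75 cytosolic and 16 of 75 mitochondrial genes stood above their mean, and in MG 3, 62 and 56 did. In the mitochondrial class the medians were -0.11, -0.10 and 0.10 in MG 1 to MG 3, 0.01, 0.09 and 0.10 in GC, and -0.13, -0.06 and 0.07 in AG. The groups thus overlapped in both classes.

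Both classes went the same way in 7 of the 9 libraries and parted in 2. In AG 1 the cytosolic median was 0.08 and the mitochondrial -0.13, and in GC 1 they were -0.10 and 0.01. The ratio of cytosolic to mitochondrial counts reached 5.72 in AG 1, while the other 8 libraries ranged from 4.73 to 5.22. AG 1 is also the library with the highest macrophage marker sum and the highest intron share over all genes, and their part in its ratio was not tested. By group the ratio was 4.88 ± 0.18 in GC, 5.08 ± 0.14 in MG and 5.23 ± 0.43 in AG (SD, n = 3).

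**Figure D5:**
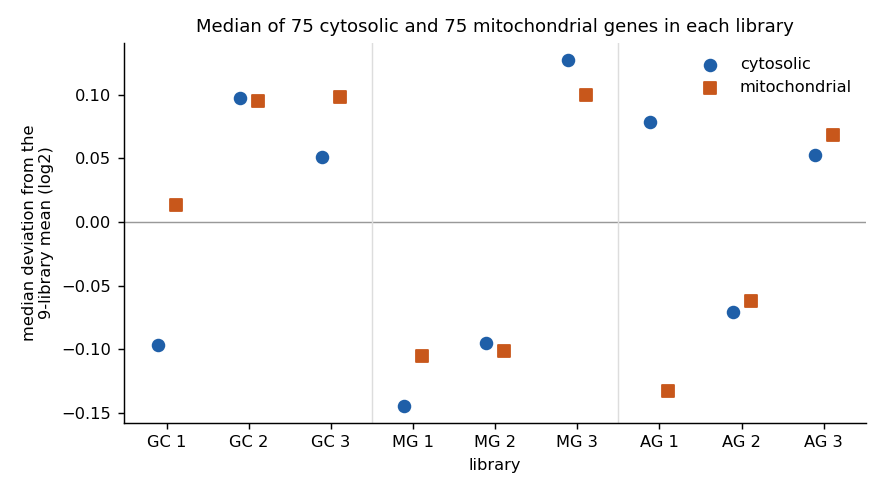
The median log2 deviation of 75 cytosolic (circles) and 75 mitochondrial (squares) genes from their mean over 9 libraries, for each library. Libraries of 1 group spread from below to above 0, and the classes part in AG 1 (0.08 and -0.13) and GC 1 (-0.10 and 0.01).

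Unique intron reads of the classes were followed as a second readout. They were 2.75% of unique gene reads in the median cytosolic gene and 7.27% in the median mitochondrial gene, against 24.1% in the median tested gene. The highest cytosolic shares, of Rps23 (56.0%), Rpl23a (54.6%) and Rpl17 (54.4%), belong to genes with few unique exon reads. Those of the mitochondrial genes Mrpl23 (69.9%), Mrps28 (60.1%) and Mrps9 (53.6%) include Mrps28 with 1439 and Mrps9 with 1448 intron reads. Small nucleolar RNA genes lie inside 22 cytosolic and 0 mitochondrial members, and all 149 small nucleolar RNA rows of the table had 0 counts. Whether reads of these RNAs enter the intron reads of the genes around them was not tested, so intron reads may not be unspliced messages alone. The median intron share was 2.95% in tested cytosolic genes that hold such a row and 2.22% in those that do not.

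On intron reads, 49 cytosolic and 50 mitochondrial genes could be tested, an alternative chosen after seeing the data. In edgeR 0 members passed in each comparison. Over all 10630 genes tested, 0.602% passed for MG against GC, 0.0% for AG against GC and 0.00941% for MG against AG. At an unadjusted p below 0.05 there were 4 cytosolic and 2 mitochondrial genes for MG against GC, 0 and 2 for AG against GC, and 2 and 1 for MG against AG. Over all genes tested on intron reads the shares were 10.5%, 7.82% and 9.7%, above those of both classes in each comparison. The cytosolic median log2 fold change on intron reads was -0.22 for MG against GC, with 33 of 49 genes below 0, and -0.22 for AG against GC, with 40 of 49 below 0. Over all genes it was -0.01 and 0.00. These 2 comparisons share the GC libraries, and the intron medians lay lower than the cytosolic medians of -0.05 and 0.01 on the expression values. The latter are over all 75 tested cytosolic genes and not the 49 alone. For MG against AG the cytosolic median was -0.04, and the mitochondrial medians in the 3 comparisons were -0.08, -0.11 and -0.003. The standard error was 0.33 in the median cytosolic gene for MG against GC, against 0.12 on the expression values of all 75. Differences of the size given above for the leading genes were thus mostly not detectable at this depth.

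The share of intron reads summed over the mitochondrial class was 9.12%, 9.66%, 10.4% and 10.6% in GC 2, MG 3, AG 3 and GC 3. It was between 12.2% and 15.4% in the other 5 libraries. The first 4 are also the 4 libraries with the highest mitochondrial class medians. Exon reads enter both quantities, so they are not independent, and the part of RNA quality in either was not tested.

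Genes around the ribosome were read from lists of known function. Of 34 tested ribosome biogenesis genes 1 fell in MG against GC and 0 rose: Fbl, the methyltransferase fibrillarin that modifies ribosomal RNA, went from 19.6 ± 1.33 CPM to 12.5 ± 1.73 (SD, n = 3 each), with 16.8 ± 1.07 in AG. Its log2 fold change was -0.64 ± 0.14 with an adjusted p of 0.0471 by edgeR, where 1.39% of all tested genes passed. This call was lost in 13 of 25 alternative fits, with adjusted p-values from 0.0187 to 1.0, among them every fit without a GC or MG library. The fit without AG 1 stands more than once among the 25. In the ribosome biogenesis list 26 of 34 genes lay below 0, with a median of -0.16. The next gene was Nop16, a nucleolar protein, at 35.2 ± 4.26 CPM in GC, 24.97 ± 2.67 in MG and 25.2 ± 1.41 in AG (adjusted p 0.0904 by edgeR).

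DESeq2 also called Nop16, with an adjusted p of 0.0490. In the other lists of ribosome, translation and biogenesis genes 0 genes passed in edgeR in any of the 3 comparisons. At an unadjusted p below 0.05 for MG against GC there were 7 lower and 0 higher of 34 ribosome biogenesis genes, and 3 lower and 0 higher of 7 ribosomal genes outside the symbol rule. Each other list had 1 to 4 in either direction, except the mitochondrial translation factors with 0. Over all tested genes the share was 13.9% (7.27% higher, 6.6% lower). Among 7 ribosomal genes outside the symbol rule, Rpl22l1, the paralog of Rpl22, had 8.98 ± 1.51 CPM in GC and 6.24 ± 0.81 in MG (adjusted p 0.272 by edgeR). Of 18 translation factors whose messages carry the pyrimidine tract, Eef1g stood at 112 ± 9.37 CPM in GC and 86.2 ± 4.17 in MG and Eif3e at 63.0 ± 4.64 and 74.3 ± 3.34 (adjusted p 0.120 and 0.352 by edgeR; 0.0487 for Eef1g by DESeq2), and over the 18 genes the median log2 fold change came to 0.06.

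Of 24 genes of mTOR and translation control, Eif4ebp1, which encodes a repressor of the cap-binding factor, had 47.6 ± 1.42 CPM in GC, 35.4 ± 2.40 in MG and 45.3 ± 2.54 in AG. Its adjusted p for MG against GC was 0.0549 by edgeR and 0.0231 by DESeq2. Sesn2, an inhibitor of mTOR complex activity when amino acids are short, had 8.02 ± 0.31 CPM in GC and 13.5 ± 3.30 in MG (adjusted p 0.238 by edgeR). Of 8 mitochondrial biogenesis genes, the coactivator Ppargc1a had 9.66 ± 2.68 CPM in GC, 15.5 ± 3.11 in MG and 15.5 ± 1.07 in AG (adjusted p 0.153 by edgeR for MG against GC), and Esrra 55.2 ± 3.81 in GC and 42.4 ± 4.53 in MG (adjusted p 0.268). All 8 mitochondrial ribosomal genes outside the symbol rule lay below 0, with a median of -0.13, Mrps18b and Chchd1 having the smallest p (adjusted 0.315 and 0.616 by edgeR). For 23 tested mitochondrial translation factors the median was 0.03, and the ribosome recycling factor Mrrf and Mterf3 had adjusted p-values of 0.389 and 0.397 by edgeR.

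The change of cytosolic genes was also read by the pyrimidine run near the annotated start. Those with a run at the start had a median log2 fold change of -0.05 for MG against GC and those without it -0.02. The medians were -0.01 and 0.03 for AG against GC, and -0.06 and -0.03 for MG against AG, over 29 and 26 genes. Genes with a run had the lower median in all 3 comparisons, which share libraries, and the difference was not tested. These are medians of message levels, and translation of the messages was not measured.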

How the data were processed

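Liver RNA was depleted of ribosomal RNA and sequenced on a NextSeq 500, per the labels' protocols. The authors deposited 1 table for all 9 libraries with counts per gene. Its expression values are counts that equal unique exon reads plus multiply mapped exon junction reads in every gene and library (0 exceptions), and the deposited unique exon, total exon and intron reads were used beside them. Adjusted p-values of the authors' own comparisons are in the deposited table and were only counted. Builds GRCm38 and mm10 are named in the submitters' processing notes, and the aligner, counting tool and use of strand were not stated in these sources. The 72 other columns of per-library values were not used. Deposited starts count from 0 and were raised by 1.

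Genes passing filterByExpr (11884) were scaled by TMM and fitted in edgeR 4.0.16 by quasi-likelihood with 1 mean per group over 9 libraries (6 residual degrees of freedom, biological coefficient of variation 16.7%). They were called at a Benjamini-Hochberg adjusted p below 0.05 over all of them. The filter left out 6 cytosolic members. Levels per kb use the table's exon length. The fit was tested on simulated counts. Intervals and floors cover counting error only where they come from counts, since reads carry no molecular identifiers. Promoters came from RefSeq on GRCm38.p6.

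Named were, for each comparison and class, the 6 members with the smallest p, the 3 with the highest level per kb, the lowest unique share and the highest intron share per class, a fixed set of genes, and from each other list called genes or else the 2 with the smallest p. Some genes this rule names, and 1 promoter window, are not reported here. Members and lists were chosen with earlier results of these data known. Alternatives were other scalings and filters, DESeq2 1.42.0, limma-voom (limma 3.58.1), a correction for exon length, the library number as a block, fitting each pair of groups alone, unique or total exon reads, and leaving libraries out. R 4.3.3, Python 3.11.15 and matplotlib 3.10.9 were used.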

Additional observations from a re-analysis of the deposited data

How the results depend on the processing

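Of the alternative values of class counts, medians, levels and shares, 348 stayed within their margin (1.5 times for a count, 1 SD of the libraries for a median, level or share, the 95% binomial interval for a promoter share), 2 gained a call and 8 moved. For MG against GC, 1 cytosolic gene (Rpl23a) was called when only the groups compared were fitted, and 1 mitochondrial gene (Mrpl20) by DESeq2, and the cause was not tested. All other fits, each library left out in turn included, called 0 members in all 3 comparisons. Leaving out 1 library moved the median log2 fold change of MG against GC between -0.13 and 0.02 in the cytosolic and between -0.13 and -0.04 in the mitochondrial class. The ranges were -0.04 to 0.05 and -0.12 to -0.03 for AG against GC, and -0.14 to 0.01 and -0.06 to 0.06 for MG against AG. The cytosolic median deviation had an SD of 0.10 in GC and 0.14 in MG. The margin of a cytosolic median came from such SDs and was wider than the main medians. A cytosolic median could thus change sign and still count as within its margin. Summed over members instead of taken as the median gene, unique exon reads were 38.3% of cytosolic and 87.1% of mitochondrial exon reads, and intron reads 12.02% of mitochondrial unique gene reads, since sums weigh long or high genes more. With runs of at least 6 pyrimidines the shares were 72.7% of cytosolic, 45.5% of mitochondrial and 41.1% of all tested genes, and with at least 10 they were 40.0%, 9.09% and 11.2%. Of 1250 values of named genes under alternatives, 1222 kept their direction and side of the threshold, 13 lost a call (all for Fbl), 15 gained one and 0 reversed. The fit without AG 1 was entered more than once, so these tallies and those of the class values count it again.

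With the library number as a replicate block, 0 members of either class were called in any comparison, and the median log2 fold change of MG against GC was -0.05 in the cytosolic and -0.08 in the mitochondrial class. With the block and the exon length correction it was -0.004 and -0.06. Over the 3 pairs of groups, libraries of the same number correlated between -0.28 and 0.48, and not every library correlated best with its own number, so the numbers were not taken to pair them.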
